A study of Mus musculus with 4 samples.

Results

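The 10 genes described here carry out bile acid synthesis and transport in the liver, namely Cyp7a1, Cyp8b1, Cyp27a1, Slc10a1, Slc10a2, Abcb11, Abcb4, Abcc2, Abcc3 and Abcc4. They were chosen by name and are 10 of the 54464 genes in the deposited single-nucleus RNA-Seq (snRNA-Seq) matrix, where each had 1 row. Liver nuclei came from 3 HNKO mice (knockout of Nampt in hepatocytes) and from 3 WT mice, all female and C57BL6/BomTac. HNKO mice carried Nampt fl/fl and Cre driven by the albumin promoter, and their WT littermates carried the floxed allele without Cre. All 6 mice were fed the purified control diet (PD) for 6 weeks from 8 to 12 weeks of age. The methods place them in a cohort in which part of the mice drank water with nicotinamide riboside (NR) for the last 3 weeks, and the water of these 6 mice is not given in the sources used here. For that cohort the methods describe a catheter in the bile duct under isoflurane on the day of sacrifice and bile collection of 15 to 30 minutes, and whether these 6 livers were taken after it is not given either.

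Bile acids are made from cholesterol in hepatocytes. The classic pathway starts with Cyp7a1 in the endoplasmic reticulum, and the alternative pathway starts with Cyp27a1 in mitochondria. Hepatocytes take bile acids up from sinusoidal blood through Slc10a1, secrete them into the canaliculus through Abcb11, and can return them to the blood through Abcc3 and Abcc4. Synthesis is known to be strongest around the central vein, where Glul, the glutamine synthetase gene, marks the innermost hepatocytes.

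The members were read in 4410 hepatocyte nuclei, 562, 713 and 657 from WT mice 1, 2 and 3 and 812, 819 and 847 from HNKO mice 1, 2 and 3, among 5193 nuclei in all. Hepatocyte sums held 3524497 to 6635290 UMIs (unique molecular identifiers) per mouse. Cholangiocytes, the cells that line bile ducts, were 40, 10 and 58 nuclei in HNKO mice 1, 2 and 3 but 1, 1 and 0 in the WT mice. Hepatocyte markers (Alb, Apob, Cps1, Ttr and Serpina1c) summed to 8931 CPM (counts per 1000000 UMIs) in hepatocyte nuclei of HNKO mouse 3 and to 20177 to 26674 CPM in the other 5 mice. HNKO mouse 3 also had the lowest share of hashtag counts from its own hashtag, at 49.0% against 66.1% to 80.3% in the other mice. According to the paper, hepatocytes of HNKO mice grouped partly by histological necrosis score, and the scores of these mice were not used here. Nampt itself, the targeted gene, was 92.2, 109 and 104 CPM in WT mice 1, 2 and 3 and 92.3, 148 and 71.5 CPM in HNKO mice 1, 2 and 3, so that 3′ counts did not separate the genotypes.

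To determine whether bile acid genes differed between genotypes, hepatocyte UMIs were summed per mouse and compared with edgeR. No member passed the false discovery rate (FDR) threshold of 0.05, where 0 of 11810 tested genes passed (background 0%) and 698 genes (5.91%) had an unadjusted p under 0.05. None of the 10 members had an unadjusted p under 0.05, nor did any pass in DESeq2 or in any other alternative, including those that left out single mice. Estimates were negative for 6 members and positive for 4, with a median log2 fold change of -0.19 against 0.02 over all genes tested. Values below are CPM after TMM scaling, which corrects for composition.

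Among the synthesis genes, Cyp7a1 (chromosome 4, positions 6265612 to 6275633, minus strand), the rate-limiting enzyme of the classic pathway, was 512, 541 and 182 CPM in WT mice 1, 2 and 3. The same gene stood at 263, 273 and 119.5 CPM in HNKO mice 1, 2 and 3. WT mouse 3 lay among the HNKO mice and WT mice 1 and 2 lay above all of them, so the groups overlapped. The means of 412 ± 199 and 218 ± 85.8 CPM (SD, n = 3 each) gave a log2 fold change of -0.91 (SE 0.46, edgeR FDR 0.82), with -1.27 without WT mouse 3 and -0.61 without HNKO mouse 3. Cyp27a1 (chromosome 1, positions 74713574 to 74737892, plus strand), the mitochondrial sterol hydroxylase of the alternative pathway, was 981, 557 and 923 CPM in WT mice 1, 2 and 3 and 1106, 551 and 101 CPM in HNKO mice 1, 2 and 3. The highest and the lowest value of Cyp27a1 were both from HNKO mice, and the log2 fold change of -0.48 (SE 0.69, edgeR FDR 0.90) was 0.02 without HNKO mouse 3. In that mouse the summed hepatocyte markers were low as well, and their part in the low Cyp27a1 value was not tested. Cyp8b1 (chromosome 9, positions 121914356 to 121916305, minus strand), the hydroxylase that directs synthesis toward cholic acid, has 1 exon and no intron in the annotation, so that intronic reads could not add to its count. It was 11.1, 9.47 and 7.93 CPM in WT mice and 8.27, 7.32 and 12.5 CPM in HNKO mice, from 33 to 87 UMIs per mouse. The log2 fold change of Cyp8b1 was -0.01 (SE 0.28, edgeR FDR 1.00).

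**Figure D1:**
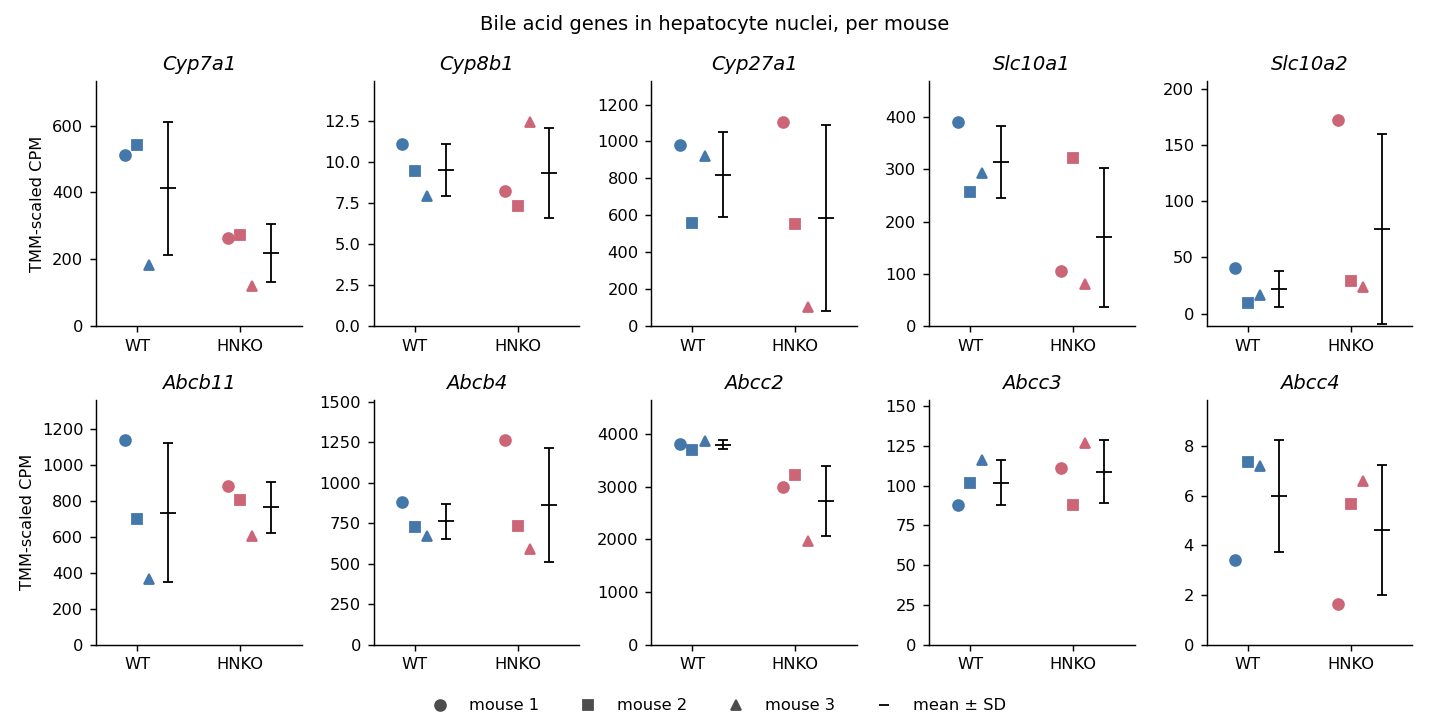
TMM-scaled CPM of each gene in summed hepatocyte nuclei (y axis, from 0, or lower where an SD bar ends below 0) for 3 WT and 3 HNKO mice (x axis), with 1 symbol per mouse and the mean ± SD beside each group. Abcc2 is the gene whose groups did not overlap, with 3699.7 to 3868 CPM in WT mice and 1968 to 3214 CPM in HNKO mice, and Slc10a2 stands at 173 CPM in HNKO mouse 1 alone.

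The sodium-dependent bile acid transporters Slc10a1 and Slc10a2 are paralogs. Slc10a1 (chromosome 12, positions 80953183 to 80968705, minus strand) is the uptake carrier of the sinusoidal hepatocyte membrane. It was 391, 258 and 294 CPM in WT mice 1, 2 and 3 and 106, 322 and 81.4 CPM in HNKO mice 1, 2 and 3. HNKO mice 1 and 3 lay below every WT mouse, whereas HNKO mouse 2 lay inside the WT range. The log2 fold change was -0.89 (SE 0.49, edgeR FDR 0.82). It was -1.75 without HNKO mouse 2, with an FDR of 0.075 that did not pass (edgeR, range over the alternatives 0.075 to 1.00).

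Slc10a2 (chromosome 8, positions 5083219 to 5105351, minus strand) is the apical carrier known from ileal enterocytes and cholangiocytes. In hepatocyte nuclei it was 40.4, 9.47 and 16.1 CPM in WT mice 1, 2 and 3 and 173, 28.8 and 23.5 CPM in HNKO mice 1, 2 and 3. The level in HNKO mouse 1 was above that of all other mice, and WT mouse 1 lay above HNKO mice 2 and 3. The log2 fold change was 1.78 (SE 0.84, edgeR FDR 0.82), and without HNKO mouse 1 it was 0.26. In HNKO mouse 1 the 1045 Slc10a2 UMIs were spread over 346 of 812 hepatocyte nuclei, and the nucleus with most of them held 4.02% of the total. In WT mouse 1, by contrast, a single nucleus held 34 of 131 UMIs (26.0%). Cholangiocyte markers in hepatocyte nuclei summed to 307 to 341 CPM in the 3 WT mice and to 618, 298 and 500 CPM in HNKO mice 1, 2 and 3. Of the 7 markers, Pkhd1 made up most of this sum (588 CPM in HNKO mouse 1). Spp1 was 7.19 to 14.2 CPM in WT mice and 24.7, 6.18 and 35.8 CPM in HNKO mice 1, 2 and 3. Sox9 was 0 to 0.567 CPM in WT and 1.51 to 4.00 CPM in HNKO mice, from 0 to 22 UMIs. Ctnnd2 was 4.06 to 5.90 CPM in WT and 3.35 to 4.22 CPM in HNKO mice. Krt19 was at 0 in hepatocyte nuclei of all 6 mice, but cholangiocyte nuclei of HNKO mice 1, 2 and 3 held 1, 0 and 1 UMIs of it. The part of these markers in the Slc10a2 level was not tested.

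The sequences upstream of both carriers and of Abcb11, the main export pump, are shown because these genes move bile acids across cell membranes and differed in pattern among the mice. They are RefSeq promoter windows of build GRCm38.p6 on the minus strand, cut where the GENCODE gene begins, at chr12:80968706-80968955 for Slc10a1, chr8:5105352-5105537 for Slc10a2 and chr2:69342617-69342866 for Abcb11. Of the 10 members, 8 had a window, with none for Cyp7a1 and Abcc3.
Slc10a1: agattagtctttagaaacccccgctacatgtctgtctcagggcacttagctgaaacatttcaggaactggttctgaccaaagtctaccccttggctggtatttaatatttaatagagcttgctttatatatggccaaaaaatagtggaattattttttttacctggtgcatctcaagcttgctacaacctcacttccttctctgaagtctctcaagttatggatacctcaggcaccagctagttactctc
Slc10a2: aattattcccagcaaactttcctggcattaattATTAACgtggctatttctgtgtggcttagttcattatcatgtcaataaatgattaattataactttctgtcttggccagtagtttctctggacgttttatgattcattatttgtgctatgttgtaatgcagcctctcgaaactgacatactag
Abcb11: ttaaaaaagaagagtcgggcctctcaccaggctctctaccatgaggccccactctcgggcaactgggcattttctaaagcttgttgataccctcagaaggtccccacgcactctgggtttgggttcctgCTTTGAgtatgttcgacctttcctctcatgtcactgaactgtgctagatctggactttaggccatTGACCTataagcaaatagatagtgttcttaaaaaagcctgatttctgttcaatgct
Capitals mark matches, on either strand, to CTTTGA (the TCF/LEF core), AGGTCA (a nuclear receptor half-site) or GTTAAT (an HNF1 half-site), which were found in 13.8%, 14.0% and 6.43% of 32851 windows of 250 bases. The Slc10a2 window held an HNF1 half-site and a TCF/LEF core, the latter in the 64 bases that the cut removed. The Abcb11 window held a TCF/LEF core and a nuclear receptor half-site. The first of 2 Slc10a1 windows, the one printed, held none of the 3, and the other held a nuclear receptor half-site. The GC content was 40.8% for Slc10a1, 34.4% for Slc10a2 and 46.4% for Abcb11. A match is a description of the letters and not a bound site.

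For export into bile, Abcb11 (chromosome 2, positions 69238282 to 69342616, minus strand), the canalicular bile salt pump, was 1137, 701 and 366 CPM in WT mice 1, 2 and 3 and 882, 804 and 604 CPM in HNKO mice 1, 2 and 3. All HNKO mice lay inside the WT range (log2 fold change 0.05, SE 0.40, edgeR FDR 0.98). Abcb11 overlaps the antisense gene Gm13613, and the counting was not stated to use strand for it. Abcb4 (chromosome 5, positions 8893717 to 8959231, plus strand), which moves phosphatidylcholine into bile, was 884, 729 and 670.3 CPM in WT mice and 1263, 731 and 593 CPM in HNKO mice, with HNKO mouse 1 above and HNKO mouse 3 below the WT range (log2 fold change 0.18, SE 0.32, edgeR FDR 0.93). Abcc2 (chromosome 19, positions 43782192 to 43840740, plus strand), which exports bilirubin and other conjugates, was 3806, 3699.7 and 3868 CPM in WT mice and 2981, 3214 and 1968 CPM in HNKO mice. All HNKO mice lay below all WT mice for Abcc2, as for 610 of 11810 genes (5.17%), and no member lay higher in all HNKO mice, as 758 genes (6.42%) did. The log2 fold change of Abcc2 was -0.48 (SE 0.30, edgeR FDR 0.82) and -0.28 without HNKO mouse 3.

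For both basolateral exporters the values of the genotypes overlapped. Abcc3 (chromosome 11, positions 94343295 to 94392997, minus strand) was 87.9 to 116 CPM in WT mice and 88.0 to 127 CPM in HNKO mice (log2 fold change 0.09, SE 0.20, edgeR FDR 0.94). Abcc4 (chromosome 14, positions 118482692 to 118706219, minus strand) was 3.39 to 7.37 CPM in WT mice and 1.65 to 6.59 CPM in HNKO mice, from 10 to 46 UMIs per mouse (log2 fold change -0.37, SE 0.51, edgeR FDR 0.90). In data simulated for the genotype comparison, 82% of 200 genes changed by 2 on the log2 scale among 11810 were recovered. Of the genes called there, 9.39% were false. This recovery is an average over genes. It holds for a change of 2, larger than every member's estimate in the main fit (1.78 for Slc10a2), and smaller changes were not simulated. The SE was 0.84 for Slc10a2 and 0.69 for Cyp27a1, above that of every other member, so the average need not hold for each member.

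The other genes of the pathway were read from a list of 53 genes that includes the members. Of 46 tested, 0 passed the threshold, 29 had a negative and 17 a positive log2 fold change, and 6 lay lower in all HNKO mice while 0 lay higher in all of them. Over all 11810 genes tested, 47.6% had a negative estimate, 5.17% lay lower and 6.42% higher in all HNKO mice. Synthesis genes had 14 negative estimates among 17 tested and a median log2 fold change of -0.19. By size, the synthesis genes were led by Cyp39a1, which hydroxylates oxysterols (log2 fold change -0.97, SE 0.64), and by Cyp7a1. Uptake genes had 5 negative estimates among 7 (median -0.58), with the largest for Slco1a1, an organic anion carrier (-1.81, SE 1.00), and for Slc10a2. Slco1a1 was 180.1 CPM in WT mouse 1 and 12.4 to 32.2 CPM in the other WT mice and HNKO mice 1 and 2, with 4.73 CPM in HNKO mouse 3.

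**Figure D2:**
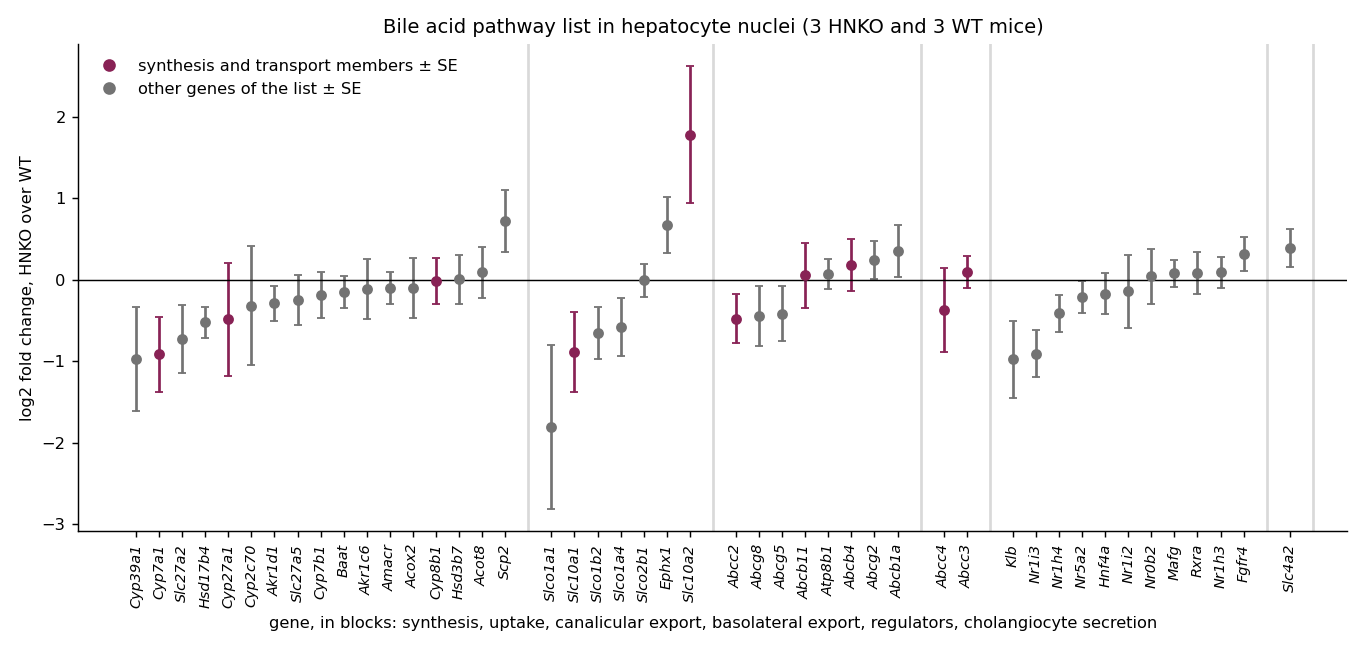
Log2 fold change of HNKO over WT hepatocyte sums (y axis, ± SE, 3 mice per genotype) for the 46 tested genes of the bile acid pathway list (x axis, in blocks by role and sorted within each), with the synthesis and transport members in colour. No gene passed the FDR threshold, and 29 of the 46 estimates lay below 0.

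Canalicular export genes were near balance, with 3 negative estimates among 8 (median 0.06), and the largest were those of Abcc2 and Abcg8, a sterol exporter (-0.45, SE 0.37). Regulators had 6 negative estimates among 11. The largest were those of Klb, the coreceptor through which intestinal FGF represses synthesis (-0.98, SE 0.48), and of Nr1i3, a nuclear receptor of bile acid and xenobiotic defence (-0.91, SE 0.29). Nr1i3 was 160.1, 257 and 215 CPM in WT mice and 92.3, 158 and 86.8 CPM in HNKO mice, so the groups did not overlap, with an unadjusted p of 0.013 and an edgeR FDR of 0.82. Hsd17b4, of peroxisomal side chain shortening, was the other gene of the list with an unadjusted p under 0.05 (log2 fold change -0.53, SE 0.19, edgeR FDR 0.82). Of the cholangiocyte secretion genes, 1 of 4 had enough counts in hepatocytes, Slc4a2 (0.38, SE 0.23).

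Hepatocyte nuclei, as set by the authors' cluster names, were next split by Glul, a division that does not itself rest on those clusters. Within each mouse, hepatocyte nuclei with at least 1 Glul UMI (132 to 223 nuclei, 19.0% to 27.2%) were summed apart from nuclei without one and compared with mouse as a term in the edgeR fit. Of the 1014 Glul-positive nuclei, 698 lay outside the clusters that the authors named Central (54.3% to 79.5% per mouse), and 12.5% to 20.5% of the nuclei outside those clusters were Glul-positive. The split is therefore a contrast of nuclei with and without a detected Glul UMI and not of the Central clusters with the rest. Of the 10 members, 6 were higher in Glul-positive nuclei and 0 were lower, where 335 of 10773 genes (3.11%) were called higher and 164 (1.52%) lower. The 6 were Cyp7a1, Cyp27a1, Slc10a1, Abcb4, Abcc2 and Abcc4. The median log2 difference was 0.22 over the members and 0.00 over all genes tested.

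Cyp7a1 was 418, 467 and 151 CPM in Glul-negative nuclei and 719, 715 and 257 CPM in Glul-positive nuclei of WT mice 1, 2 and 3. In HNKO mice 1, 2 and 3 the Glul-negative nuclei held 219.8, 231 and 100.2 CPM and the Glul-positive nuclei 387, 376 and 195 CPM. The difference therefore had the same direction in 6 of 6 mice and lay between 0.61 and 0.96 on the log2 scale, while the spread in level between mice was wider. The fitted log2 difference of Cyp7a1 was 0.76 (SE 0.06, edgeR FDR 5.4e-11). Cyp27a1 rose from 945, 505 and 834 CPM to 1051, 681 and 1131 CPM in WT mice 1, 2 and 3, and from 969.99, 498 and 89.9 CPM to 1489, 685 and 143 CPM in HNKO mice 1, 2 and 3. It was higher in 6 of 6 mice as well (log2 difference 0.45, SE 0.06, edgeR FDR 1.5e-06). HNKO mouse 3, which had the lowest Cyp27a1 level, showed the largest log2 difference (0.67).

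**Figure D3:**
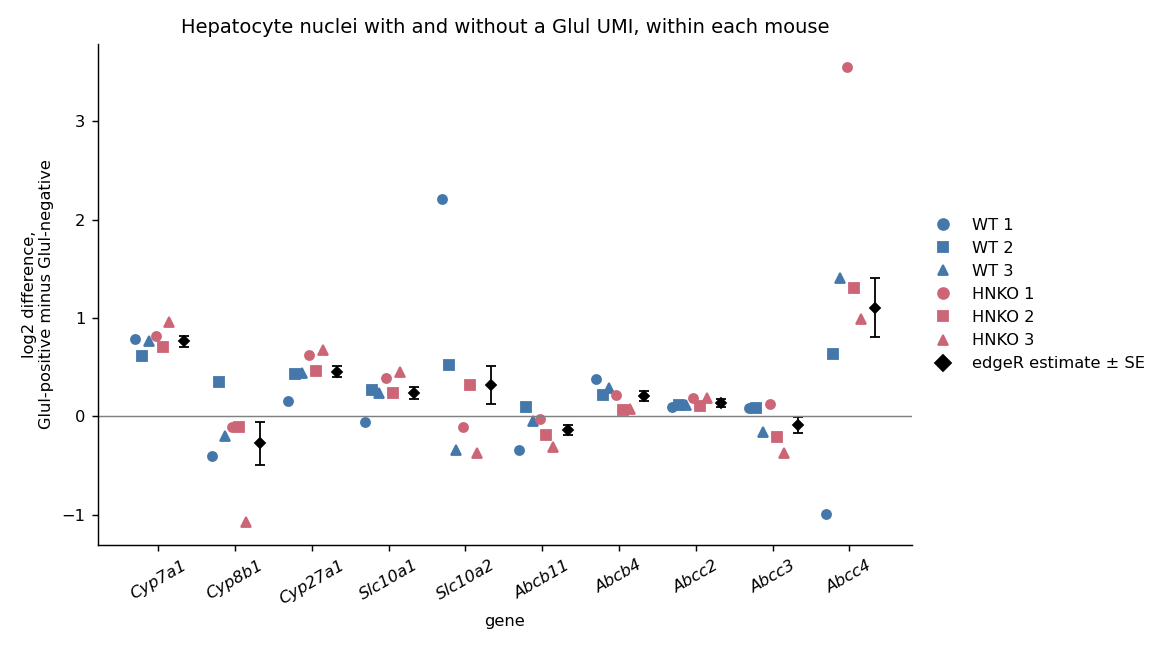
Log2 difference in CPM between Glul-positive and Glul-negative hepatocyte nuclei of the same mouse (y axis) for each gene (x axis), with 1 symbol per mouse and the edgeR estimate ± SE in black. All 6 mice lie above 0 for Cyp7a1, Cyp27a1, Abcb4 and Abcc2, while Slc10a2 in WT mouse 1 and Abcc4 in HNKO mouse 1 stand far above the other mice.

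The remaining calls were smaller or rested on few UMIs, and none of these 4 passed without WT mouse 3. The log2 difference was 0.24 for Slc10a1 (SE 0.06, edgeR FDR 0.026, higher in 5 of 6 mice), 0.20 for Abcb4 (SE 0.05, edgeR FDR 0.0099, higher in 6 of 6 mice) and 0.14 for Abcc2 (SE 0.04, edgeR FDR 0.034, higher in 6 of 6 mice). Abcc4 had a log2 difference of 1.10 (SE 0.30, edgeR FDR 0.024, higher in 5 of 6 mice), but from 2 to 17 UMIs in the Glul-positive and 2 to 31 UMIs in the Glul-negative nuclei of a mouse. Abcb11 was the member nearest to the opposite direction, at -0.14 (SE 0.05, edgeR FDR 0.19), lower in 5 of 6 mice. Cyp8b1 (-0.28, SE 0.22), Abcc3 (-0.09, SE 0.08) and Slc10a2 (0.32, SE 0.19) did not pass. Abcb4 was the only one of the 4 to pass without HNKO mouse 1, 2 or 3, and it did not pass without WT mouse 1, while Slc10a1 and Abcc2 did not pass without WT mouse 2.

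Glul-positive nuclei held more UMIs than Glul-negative nuclei, with medians of 4177 to 5614 against 3354 to 3895 in WT mice and 4800 to 6640 against 4768 to 5647 in HNKO mice. When nuclei were thinned to 1500 UMIs before the split, 2 of 9 members tested passed, Cyp7a1 (log2 difference 1.11, edgeR FDR 4.1e-20) and Cyp27a1 (0.50, edgeR FDR 2.6e-06). Over all alternatives, the FDR ranged from 1.3e-24 to 1.00 for Cyp7a1 and from 1.6e-08 to 1.00 for Cyp27a1, and the highest value of each came from the fit without a mouse term, which called none of the members.

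Other genes of the pathway list moved with the Glul split too, 18 of 46 tested including the 6 members, all of them higher in Glul-positive nuclei, against 3.11% of all genes called higher and 1.52% called lower. After thinning, 11 of 44 tested were called, again all higher, against 3.68% of 6747 genes called higher and 3.31% called lower. Akr1c6, Cyp7b1, Scp2, Slco1a1, Slco1b2 and Nr1i3 were among these 11, with Cyp7a1 and Cyp27a1, and the other 3 (Klb, Nr0b2 and Rxra) had not been called without thinning. Without thinning, in synthesis the called genes were 8 of 17, led by Akr1c6, a reductase (log2 difference 0.94, SE 0.07), and including Cyp7b1, the next enzyme of the alternative pathway (0.61, SE 0.07), both higher in 6 of 6 mice. In uptake they were 5 of 7, including Slco1b2 (0.44, SE 0.06) and Slco1a1 (0.63, SE 0.16). Hsd3b7, Hsd17b4, Scp2, Slc27a2, Slco1a4 and Slco2b1 were called as well, at log2 differences of 0.19 to 0.42. In canalicular export they were 3 of 8, with Abcg8 at 0.41 (SE 0.10), and among regulators 1 of 11, Nr1i3 (0.46, SE 0.08, edgeR FDR 0.00037).

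Whether the difference between Glul-positive and Glul-negative nuclei itself differed between genotypes was tested as an interaction. No member passed, against 14 of 10773 genes (0.13%). The log2 difference of Cyp7a1 was 0.72 ± 0.09 in WT mice and 0.82 ± 0.13 in HNKO mice (SD, n = 3 each), with an interaction term of 0.10 (SE 0.11, edgeR FDR 0.97). For Cyp27a1 it was 0.34 ± 0.16 and 0.58 ± 0.11 (interaction 0.23, SE 0.10, edgeR FDR 0.79). Slc10a2 had the lowest p of the members, with a term of -1.20 (SE 0.35, edgeR FDR 0.36). That estimate rested on WT mouse 1, where 34 of the 88 Slc10a2 UMIs in Glul-positive nuclei came from 1 nucleus, and it was -0.05 without that mouse. Without WT mouse 3, by contrast, it was -1.81 and passed (edgeR FDR 0.0032, range over the alternatives 0.0032 to 1.00).

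The authors' clusters gave a view by named zone, as a description without a test, since the clusters were made from these counts. Levels by cluster and cell type are CPM of the summed UMIs without TMM scaling. In nuclei of the clusters named Central (39 to 100 per mouse) against the other hepatocyte nuclei of the same mouse, the log2 ratio was 1.21 ± 0.51 for Cyp7a1 and 0.86 ± 0.13 for Cyp27a1 (SD over 6 mice), both above 0 in 6 of 6 mice. Abcb11 had a ratio of -0.71 ± 0.48 and lay below 0 in 6 of 6 mice. Abcc2 (0.19 ± 0.09) was above 0 in 6 of 6 mice, whereas Slc10a1 (0.01 ± 0.51) was above 0 in 3 of 6. Abcc4 (1.67 ± 1.29) was also above 0 in 6 of 6 mice, but from few UMIs. Its Central sums held 2 UMIs in each WT mouse, below a limit of 3 counts, and 7 to 10 UMIs in HNKO mice.

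Across the 13 hepatocyte clusters, Cyp7a1 ranged from 67.6 CPM in Periportal 2 to 737 CPM in Hepatocytes 4. Both clusters were made up almost entirely of 1 WT mouse, with 262 of 264 nuclei from WT mouse 3 and 196 of 203 from WT mouse 1. Within WT mouse 1, Cyp7a1 was 1023 CPM in Central 1, 745 CPM in Hepatocytes 4 and 118 CPM in Periportal 3. Within WT mouse 3 it was 497 CPM in Central 1, 236 CPM in Hepatocytes 3 and 65.8 CPM in Periportal 2, so the order was the same at a lower level. In WT mouse 2 the order differed, with 732 CPM in Hepatocytes 1, 627 CPM in Central 1 and 223 CPM in Periportal 1. In HNKO mouse 2 it went from 521 CPM in Central 1 to 421 CPM in Hepatocytes 1 and 105 CPM in Periportal 1. HNKO mice 1 and 3 had almost no nuclei in the Periportal clusters, and their Cyp7a1 levels were 544 CPM in Central HNKO 1 against 195 CPM in HNKO 1 (HNKO mouse 1), and 361 CPM in Central HNKO 2 against 252 and 73.7 CPM in HNKO 3 and HNKO 2 (HNKO mouse 3).

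**Figure D4:**
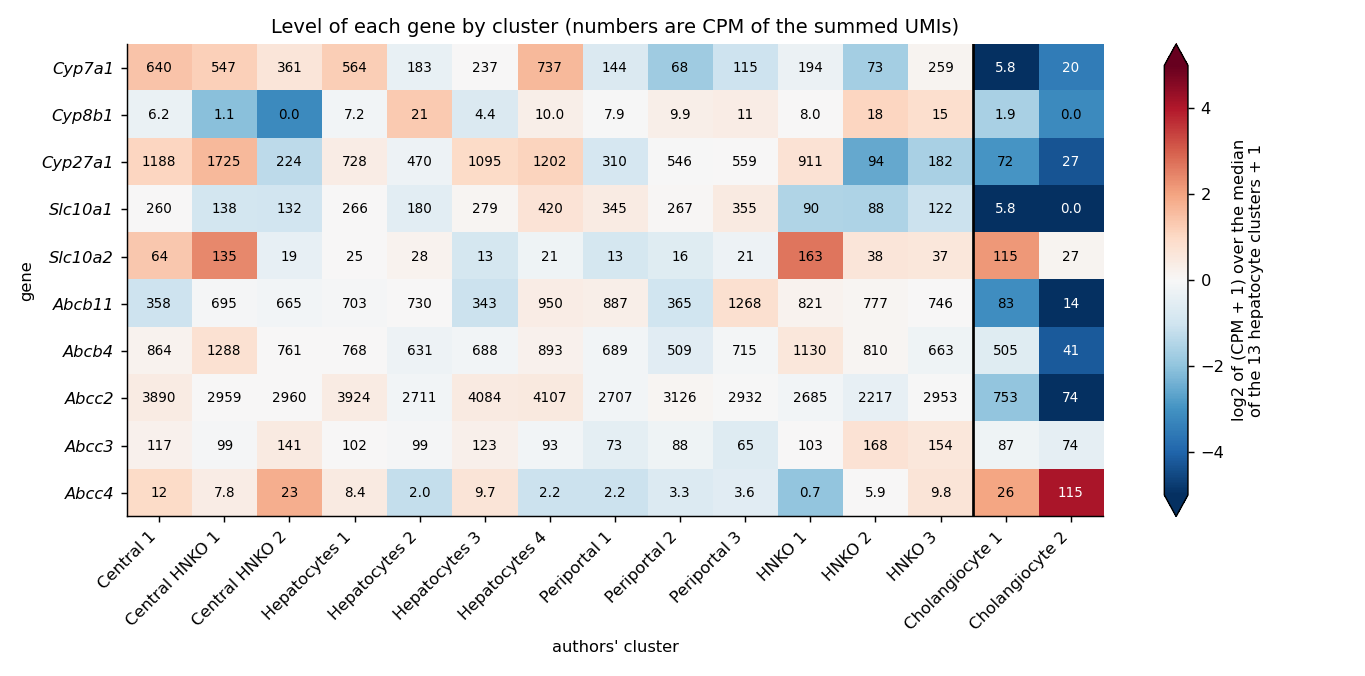
CPM of summed UMIs (numbers) for each gene (rows) in the 13 hepatocyte clusters and, right of the line, the 2 cholangiocyte clusters (columns), coloured by the log2 of CPM + 1 over the median of the hepatocyte clusters + 1, with the colour scale ending at -5 and 5. Cyp7a1 and Cyp27a1 are high in Central 1 and Central HNKO 1, but Cyp7a1 is highest in Hepatocytes 4 (737 CPM). Central HNKO 2 holds 361 CPM of Cyp7a1 and 224 CPM of Cyp27a1. Slc10a2 is high in HNKO 1 (163 CPM) and Central HNKO 1 (135 CPM), and Abcc4 is highest in Cholangiocyte 2 (115 CPM).

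Cyp27a1 ranged from 93.6 CPM in HNKO 2 to 1725 CPM in Central HNKO 1, both HNKO clusters of 1 mouse each. The clusters of HNKO mouse 3 (HNKO 2, HNKO 3 and Central HNKO 2) were the lowest for Cyp27a1, at 93.6 to 224 CPM. Slc10a1 was lowest in HNKO 2 and HNKO 1 (87.8 and 90.2 CPM) and highest in Hepatocytes 4 (420 CPM). Abcc2 varied least, between 2217 and 4107 CPM. Cyp8b1 was 20.9 CPM in Hepatocytes 2, from 21 UMIs, and 0 UMIs were found in Central HNKO 2, which allows up to 6.94 CPM by a limit of 3 counts. In nuclei of the Central clusters, Slc10a2 was 133 CPM in HNKO mouse 1 (exact Poisson 95% interval 111 to 159). It was 112 CPM in WT mouse 1 (74.7 to 160.2), so these intervals, which cover counting error only, overlapped. The UMIs came from 44% of the Central nuclei in HNKO mouse 1 (122 UMIs) but from 23.1% in WT mouse 1 (29 UMIs). HNKO mouse 2 held 73.5 CPM there, with 18.5 to 31.3 CPM for the other 3 mice. In the remaining hepatocyte nuclei HNKO mouse 1 held 161 CPM, above the 8.57 to 31.2 CPM of the other 5 mice. The 37 nuclei of that mouse in the mixed cluster Hepatocytes 2 held 138 CPM, against 4.60 to 12.8 CPM in the other mice with 20 or more nuclei there.

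The genes whose level followed that of Cyp7a1 most closely over the 13 hepatocyte clusters were the unnamed gene ENSMUSG00000118168, Rdh16, Celf2, Ube2h and Cyp2c39. Pearson's r of log2(CPM + 1) was 0.89 to 0.91 for them, among 7355 genes with a mean of at least 10 CPM. Clusters share mice and zones, so this is a description of 13 points. Cyp8b1 had a mean of 9.16 CPM and stayed under that minimum.

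Cholangiocytes were compared with hepatocytes of HNKO mice, since WT mice gave 2 cholangiocyte nuclei with 6788 UMIs. The 108 HNKO nuclei held 656126 UMIs. In the clusters Cholangiocyte 1 and Cholangiocyte 2, WT nuclei included, the 7 cholangiocyte markers summed to 6380 and 13367 CPM. RNA freed from hepatocytes can give other nuclei hepatocyte UMIs, and 8 abundant hepatocyte genes (Alb, Apob, Apoa1, Apoc3, Fgb, Ttr, Serpina1a and Cps1) stood in cholangiocytes at 4.71% to 29.5% of their hepatocyte level, with a median of 20.6%. Over the 3 mice together, Cyp7a1 (4.08%, 6 UMIs) and Slc10a1 (2.64%, 3 UMIs) lay below that range. Cyp27a1 (10.6%), Abcb11 (8.65%), Cyp8b1 (15.3%, 1 UMI) and Abcc2 (21.6%) lay within it, and whether these UMIs came from free RNA was not tested.

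Over the 3 mice together, Abcb4, Abcc3, Slc10a2 and Abcc4 lay above the range. In HNKO mouse 3 the 8 genes stood at 12.7% to 39.3%. There too Abcb4, Abcc3, Slc10a2 and Abcc4 lay above the range, at 55.8%, 66.3%, 396% and 606%. Cyp7a1 and Slc10a1 lay below it, at 3.71% and 2.72%. Unlike in the pooled mice, Abcb11 (9.92%) and Cyp8b1 (0%) also lay below the range of HNKO mouse 3. In HNKO mouse 1, Cyp7a1 (4.80%), Slc10a1 (7.99%), Abcb4 (38.0%), Abcc3 (45.4%) and Slc10a2 (46.3%) all lay within its range of 4.00% to 48.2%, and Abcc4 lay above it. In HNKO mouse 2, with 10 nuclei, the range was 0% to 72.8%, and Slc10a2 (85.3%, 1 UMI) and Abcc3 (83.6%, 3 UMIs) lay above it while Abcb4 (10.1%) did not. Abcc4 was 43.2 CPM in cholangiocytes (28 UMIs, exact Poisson 95% interval 28.4 to 61.7) and 4.94 CPM in hepatocytes, a log2 ratio of 3.13. Its cholangiocyte UMIs were 10, 0 and 18 in HNKO mice 1, 2 and 3. Nuclei that the authors named CD45+ (leukocytes) held Abcc4 at a similar level. It was 46.4 CPM in HNKO mice (25 UMIs) and 49.1 CPM in WT mice (6 UMIs). Slc10a2 was 94.5 CPM in cholangiocytes (62 UMIs, interval 72.4 to 121) and 76.3 CPM in hepatocytes, but the order differed between mice. In HNKO mouse 1 it was 73.0 CPM in cholangiocytes and 157 CPM in hepatocytes, whereas in HNKO mouse 3 it was 118 and 29.8 CPM, from 42 cholangiocyte UMIs. Abcb4 was 405 CPM (45.4% of the hepatocyte level) and Abcc3 80.8 CPM (70.0%).

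**Figure D5:**
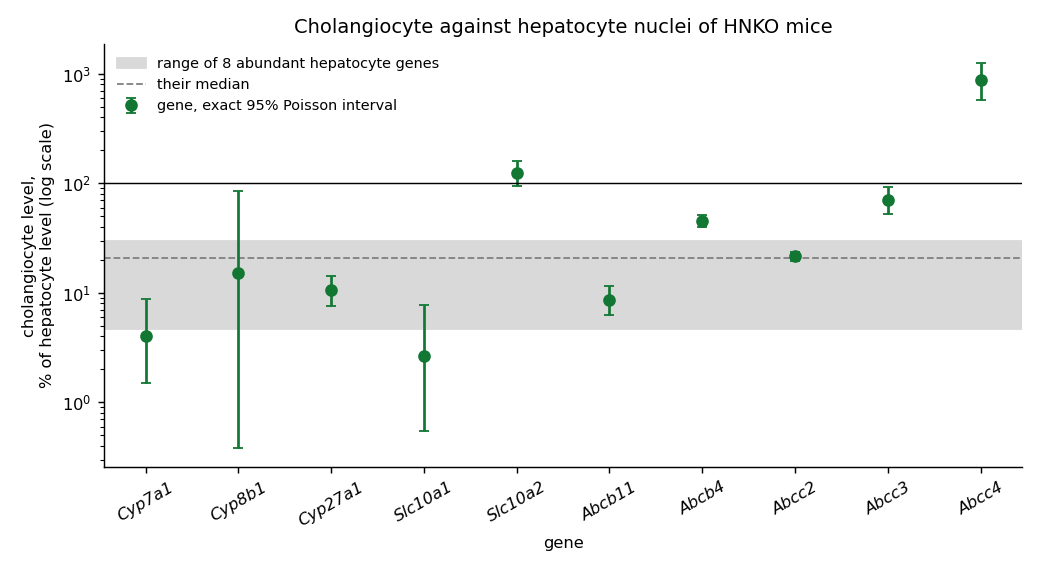
Level in cholangiocyte nuclei as a percentage of the level in hepatocyte nuclei of the 3 HNKO mice (y axis, log scale) for each gene (x axis), with exact 95% Poisson intervals of the cholangiocyte count and, in grey, the range and median of 8 abundant hepatocyte genes. Over the pooled mice Cyp7a1 and Slc10a1 lie below the grey range, and Abcb4, Abcc3, Slc10a2 and Abcc4 lie above it, but in HNKO mouse 1 alone Abcc4 is the one of these 6 outside its range.

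The 2 cholangiocyte clusters differed in these genes. Against HNKO hepatocytes, Abcb4 stood at 56.6% in Cholangiocyte 1 (76 nuclei) and at 4.77% in Cholangiocyte 2 (32 HNKO nuclei), and Abcc2 at 26.7% and 2.77%. The 8 abundant hepatocyte genes had medians of 22.6% and 13.7% there, so Abcb4 lay above their range of 4.86% to 28.8% in Cholangiocyte 1 and inside their range of 4.17% to 32.2% in Cholangiocyte 2. The next levels are over all nuclei of each cluster, and 2 of the 34 nuclei of Cholangiocyte 2 were from WT mice. Slc10a2 was 115 CPM in Cholangiocyte 1, from 59 UMIs. In Cholangiocyte 2 it was 27.1 CPM, from 4 UMIs (interval 7.38 to 69.4), 1 of them in a WT nucleus. Abcc4 had the opposite order, with 25.9 CPM in Cholangiocyte 1 and 115 CPM in Cholangiocyte 2, where 2 of 17 UMIs were in a WT nucleus. Most nuclei of Cholangiocyte 1 came from HNKO mice 1 and 3, with 30 and 45 of 76.

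Each basolateral exporter had a non-parenchymal cell type with a higher level than hepatocytes. Abcc4 was 163 CPM in WT and 177 CPM in HNKO endothelial nuclei, with 112 to 201 CPM in each of the 6 mice, against 5.80 and 4.94 CPM in hepatocytes. Abcc3 was 367 CPM in WT and 296 CPM in HNKO Kupffer cells, the resident macrophages, with 243 to 404 CPM in each of the 6 mice from 4 to 29 UMIs, against 96.8 and 115 CPM in hepatocytes. In endothelial nuclei, the 8 members other than Abcc3 and Abcc4 stood at 17.9% to 39.4% of their hepatocyte level, where the 8 abundant hepatocyte genes stood at 16.8% to 34.9% in WT and 21.6% to 46.6% in HNKO mice. Endothelial markers summed to 28.2 to 42.7 CPM in hepatocyte nuclei and to 9647 CPM in the endothelial cluster, and their part in the low hepatocyte Abcc4 level was not tested.

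The share of hepatocyte nuclei with a UMI was compared after each nucleus had been thinned to 1500 UMIs, which kept 4400 of 4410 nuclei. The smallest p that an exact permutation test of 3 against 3 mice allows is 0.1. Slc10a2 was detected in 2.86%, 1.12% and 2.14% of thinned nuclei of WT mice 1, 2 and 3 and in 14.8%, 3.06% and 4.02% of HNKO mice 1, 2 and 3. The groups did not overlap (two-sided exact permutation p = 0.1), as for 1168 of 11810 genes (9.89%) with a higher share in all HNKO mice. Abcc2 was detected in 98.2% to 99.2% of WT and 94.6% to 96.9% of HNKO nuclei, lower in all HNKO mice (exact permutation p = 0.1), as were 254 genes (2.15%). Without thinning, the shares of Slc10a2 were 3.79% to 9.79% in WT and 9.65% to 42.6% in HNKO mice and those of Abcc2 overlapped too, while Abcb4 was then apart, at 75.6% to 81.9% in WT and 85.7% to 91.5% in HNKO mice (exact permutation p = 0.1). That was so for 4472 of 11810 genes (37.9%) without thinning, where HNKO nuclei held more UMIs (medians 4800 to 5786 against 3572 to 4162). For the other 8 members the thinned shares overlapped, with exact permutation p from 0.2 to 1.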

How the data were processed

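Nuclei of 6 mouse livers were tagged with hashtags and sequenced in 2 RNA pools and 2 hashtag pools (10x 3′ chemistry, Cell Ranger 5.0.1 and alevin in the submitters' processing notes). The authors aligned to GRCm38 with GENCODE M25 and deposited estimated counts of UMIs per gene and nucleus, of which 10.1% of nonzero values lay over 0.001 from a whole number, as well as a SCTransform-corrected matrix, treated as a score, and hashtag counts. Cell types and clusters were the authors' own deposited names. Which pool a nucleus came from was not used here, so pool effects cannot be told apart, and no doublet caller was run. No barcode was duplicated (0).

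From these files, UMIs were summed per mouse and cell type, sums were rounded, and mice were numbered by hashtag name within genotype. Nuclei of 1 mouse were never treated as replicates. edgeR 4.0.16 (R 4.3.3, quasi-likelihood test, TMM scaling, low-count filter, Benjamini-Hochberg FDR of 0.05) compared 3 HNKO with 3 WT sums over 11810 genes, and Glul-positive with Glul-negative sums of the same mice (12 sums, mouse as a term) over 10773 genes. In data simulated for each comparison, 82.0% (genotype), 95.5% (Glul split) and 81.5% (interaction) of 200 genes changed by 2 on the log2 scale were recovered. That change is larger than every member's estimate in the main fits, so recovery at the sizes reported was not tested. The simulated means carried no differences between mice other than the size of the sums. Shares used nuclei thinned to 1500 UMIs and a two-sided exact permutation test. Alternatives were DESeq2 1.42.0, limma 3.58.1 on mean CPM per nucleus, RLE size factors, no filter, 562 nuclei per mouse, no Central clusters, at least 2 Glul UMIs, Slc1a2 in place of Glul, thinning, no mouse term, the corrected matrix, and leaving out each mouse. Exact Poisson intervals (95%) and the limit of 3 counts cover counting error only.

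Positions are from GENCODE on GRCm38, and promoters from RefSeq. The named genes are the 10 members, Nampt, Glul, pathway genes past the threshold, the 2 with the largest genotype estimate in each role, and the 5 most like Cyp7a1. Members and lists were chosen with earlier results of these data known.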

Additional observations from a re-analysis of the deposited data

Results flagged for a closer look

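The log2 difference of Slc10a2 between Glul-positive and Glul-negative hepatocyte nuclei was 2.21 in WT mouse 1 and -0.37 to 0.52 in the other 5 mice. Its gap to the nearest mouse was 0.656 of the whole range, above Dixon's critical value of 0.625 for 6 samples. Of its 131 Slc10a2 UMIs, 34 came from 1 Glul-positive nucleus, which the authors' clusters placed in HNKO 3. This was the 1 value flagged among 20 groups checked, and chance flags about 1 in 20 groups.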

How the results depend on the processing

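No paired analysis was possible because mouse numbers only name animals, as far as WT and HNKO mice are compared. The Glul split was paired within each mouse by its mouse term. The genotype comparison called 0 genes in edgeR, 21 in DESeq2, 35 without a filter and 0 to 32 when single mice were left out (32 without HNKO mouse 2), with 0 members in each. The estimate of Cyp8b1 turned to 0.00795 without a filter, 0.0346 without Central clusters and 0.0508 in limma, with -0.27 to 0.14 over left-out mice. Left-out mice also turned Cyp27a1 (-1.33 to 0.0235), Abcb11 (-0.27 to 0.51), Abcb4 (-0.20 to 0.40), Abcc3 (-0.0252 to 0.23), Abcc4 (-0.72 to 0.0194) and Nampt (-0.31 to 0.25).

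The Glul split called 499 genes, 826 with at least 2 Glul UMIs, 970 with Slc1a2, 293 in DESeq2, 15 without a mouse term and 330 to 471 over left-out mice (330 without HNKO mouse 1). Members called were 6, then 2 after thinning, 3 in DESeq2, 0 without a mouse term and 2 to 5 over left-out mice (2 without WT mouse 3, and 3 without HNKO mouse 1, 2 or 3). Estimates that turned were Cyp8b1 (0.21 thinned), Slc10a1 (-0.0321 with Slc1a2), Abcc3 (0.28 with Slc1a2, 0.15 thinned) and Slc10a2 (-0.0408 to 0.57 over left-out mice, the lowest without WT mouse 1). The interaction called 14 genes, 5 with Slc1a2 and 6 to 18 over left-out mice (7 without WT mouse 2, 8 without HNKO mouse 1, 6 without HNKO mouse 3), with 0 to 1 members, and Abcb11 turned to 0.24 with Slc1a2 (-0.21 to 0.0299 over left-out mice).

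Members with thinned shares that did not overlap were 2, with 1 unthinned and 2 to 4 over left-out mice (4 without WT mouse 1 or HNKO mouse 2). Differences in share that turned over left-out mice were those of Cyp8b1 (-0.0496 to 0.87 percentage points), Cyp27a1 (-22.8 to 1.42), Abcb11 (-0.44 to 15.4), Abcc3 (-0.93 to 3.45) and Abcc4 (-0.37 to 0.27). The cause of these changes was not tested. With 33 to 87 UMIs of Cyp8b1 and 10 to 46 of Abcc4 per mouse, depth limits both genes.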

Other observations

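Abcc4 was also found in Kupffer cells of HNKO mice, at 126 to 216 CPM per mouse from 8 to 13 UMIs, and at 141 CPM over the 3 mice. In WT mice 2 Abcc4 UMIs were found in 16 Kupffer nuclei (30.6 CPM). The genotypes were not tested for this difference. Stellate nuclei held 4.21 CPM of Abcc4 in WT mice, from 1 UMI, and 24.2 CPM in HNKO mice, from 11 UMIs.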
